A study of Sus scrofa with 15 samples.

Results

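Ribosomal proteins and translation factors were followed across sorted cells of the adult pig knee. The set was defined by symbol and not by any measured value. It held every row of the deposited table whose symbol begins with RPL or RPS and a number (S6 kinases excepted), RPSA, RPLP, EIF or EEF, which gave 114 of 25322 rows and 111 symbols, since RPS26, RPSA and RPS16 have 2 rows each. Articular cartilage from the knees of adult pigs was digested with enzymes, and dissociated chondrocytes were sorted by 2 surface proteins, integrin alpha 4 (ITGA4) and bone morphogenetic protein receptor 1B (BMPR1B). The 4 populations were ITGA4+BMPR1B+ cells (DP), ITGA4-BMPR1B+ cells (B1B), ITGA4+BMPR1B- cells (A4) and ITGA4-BMPR1B- cells (DN), each from the animals labelled pigs 2, 5 and 6. They were set against CD45-CD31-CD146+ cells of the knee synovium, labelled MSC and described in the labels as pericytes, from the animals labelled pigs 3, 4 and 5. RNA of each population was sequenced as 1 library per animal, 15 in all. The sex of the animals was not given in the sources used here.

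The ribosome is built from a large and a small subunit, each made of many proteins on a frame of ribosomal RNA, and cells make these proteins in matched amounts. Initiation factors bring the small subunit, the first transfer RNA and the messenger RNA together, and elongation factors then move the ribosome along the message. Kinases that phosphorylate eIF2 and inhibitors that hold the cap-binding protein eIF4E can slow this process under stress or nutrient shortage. Chondrocytes use this machinery to make the collagen and aggrecan that they secrete into the cartilage matrix.

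The deposited values are a signal whose unit is not stated, and every library sums to 629194 or 629195. Structural RNA held most of it, so that messenger RNA rows took 2.03% to 22.1% of the signal in chondrocyte libraries, against 2.95% to 3.78% in CD146+ libraries. Levels are therefore given on a scale of messenger RNA rows alone, on which the mean library totals 1000000. The sources used here do not say whether the signal was divided by the length of a row, so levels were compared between libraries, and an order of genes by signal is a description only. The 4 chondrocyte libraries of pig 2 had messenger RNA shares of 2.03% to 4.15%, close to the CD146+ libraries, and those of pigs 5 and 6 were higher. The members together made up 5.06% to 9.10% of messenger RNA signal in chondrocyte libraries, against 5.71% to 6.24% in CD146+ libraries.

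The sorted cell types were checked against marker lists. The 8 chondrocyte markers, COL2A1 and ACAN among them, summed to between 15470 and 85500 in each chondrocyte library, against 32.7 to 47.5 in CD146+ libraries, where MATN3, COL9A1 and COL11A1 stayed below 1. The signal of MCAM, the gene of CD146, was 0.616 to 9.94 in chondrocytes, against 347.5, 731.4 and 265.8 in CD146+ cells of pigs 3, 4 and 5. Endothelial markers (7 of 8 with a row) summed to 3.27 to 97.6 in chondrocytes, against 2748 to 4688 in CD146+ cells, although those cells had been sorted as CD31-. Pericyte and smooth muscle markers (8 of 9) summed to 73.3 to 118 in chondrocytes, against 454.2 to 855.8 in CD146+ cells. That list includes MCAM, whose protein was used for the sort, so the sum does not check the sort independently. Of the other genes tested, RGS5 (log2 difference -2.59) and ACTA2 (-3.62) were lower in chondrocytes. KCNJ8 (-0.37, limma adjusted p = 0.0705) and ABCC9 (0.33, limma adjusted p = 0.218) did not pass. Macrophage markers (6 of 8) summed to 93.3 to 427.2 in chondrocytes, against 43.8 to 80.7 in CD146+ cells, and CD163 stayed below 1 in every library. PTPRC and C1QB also stayed below 1 in all DP, B1B, DN and CD146+ libraries. Of the 2 macrophage genes tested, CD14 was higher in chondrocytes (mean 199.9 against 54.4) and CD68 did not pass (log2 difference -0.08, limma adjusted p = 0.946). Fibroblast markers (5 of 6) summed to 433.7 to 2159 in chondrocytes, against 38.9 to 114.1 in CD146+ cells, and erythroid markers (3 of 6) to 0.0 to 10.2 in chondrocytes, against 0.0 to 2.97 in CD146+ cells. The part of these other cell types in the differences between chondrocytes and CD146+ cells was not tested. In bulk libraries, fewer cells of a type and less RNA per cell cannot be told apart. Messenger RNA of the sort proteins was low in all chondrocytes: ITGA4 had a signal of 0.0568 to 1.40 in ITGA4+ libraries, against 0.107 to 0.875 in ITGA4- libraries, and BMPR1B 0.0 to 0.150 in BMPR1B+ libraries, against 0.0 to 0.153 in BMPR1B- libraries. These ranges overlapped, so the messages do not check the sort of the proteins.

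One member went against the animal labels. EIF1AY, the copy on chromosome Y of initiation factor eIF1A, was listed at 0 in all 4 chondrocyte libraries of pig 5. It had 5.08 to 11.4 in the chondrocyte libraries of pigs 2 and 6, and 14.1, 10.5 and 8.70 in CD146+ cells of pigs 3, 4 and 5. DDX3Y, a helicase gene of the same kind, had 0.184 to 0.508 in chondrocytes of pig 5, against 293.9 in CD146+ cells with the same animal number. USP9Y had 0.0 to 0.199 and 7.68 in those libraries. EIF2S3, the gamma subunit of eIF2 encoded on chromosome X, had 47.1 to 49.8 in chondrocytes of pig 5, against 18.9 to 31.7 in those of pigs 2 and 6 and 21.5 to 23.9 in CD146+ cells. EIF1AX, the X copy of eIF1A, had 74.2 to 92.0 in chondrocytes of pig 5, against 49.6 to 70.9 in those of pigs 2 and 6 and 59.3 to 67.9 in CD146+ cells. The library labelled CD146+ pig 5 thus differed in Y-linked genes from the 4 chondrocyte libraries labelled pig 5. Outside an alternative fit with the animal as a term, animal numbers were not used to link cartilage with synovium. EIF1AY and EIF1AX are near-identical copies, and reads may be split between them. Over all chondrocytes EIF1AY did not pass the test against CD146+ cells (-1.55, limma adjusted p = 0.20).

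**Figure D1:**
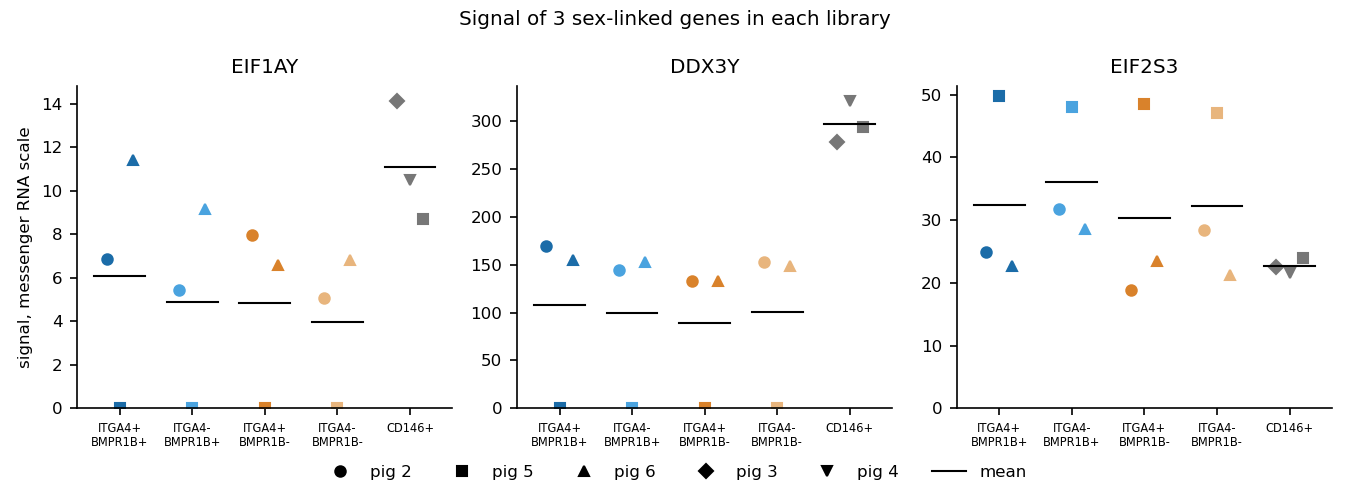
Signal on the messenger RNA scale (vertical axis) of EIF1AY, DDX3Y and EIF2S3 in each of 15 libraries by sorted population, with animals as symbol shapes and bars as means. The 4 chondrocyte squares of pig 5 lie at 0.508 or below for both Y-linked genes and at 47.1 or above for EIF2S3, apart from the CD146+ square.

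To ask how the translation machinery of chondrocytes compares with that of synovial CD146+ cells, the 12 chondrocyte libraries were set against the 3 CD146+ libraries. On the scale used here, ribosomal proteins of both subunits and 3 elongation factors were mostly higher in chondrocytes. Initiation factors were mixed, with eIF3 subunit EIF3L far higher and EIF2B2 and EIF2B5 lower on the scale used here. Of 114 members, 106 exceeded a signal of 5 in at least 3 libraries and were tested with limma among 9961 genes. At an adjusted p below 0.05, 49 members (46.2%) were higher and 12 (11.3%) lower in chondrocytes, against a background of 22.4% and 21.8% of all genes tested. The median member difference was 0.49 on the log2 scale, against -0.02 for all genes. Every chondrocyte library exceeded every CD146+ library for 36 members, against 14.8% of all genes tested, and lay below every one for 8 members, against 15.6%. Without the CD146+ library of pig 5, 7 members were lower, against 1470 of all 9587 genes. The 4 populations of a pig share an animal, so p-values treat related libraries as separate samples. By their labels, the 12 chondrocyte libraries come from 3 animals. With the chondrocyte libraries of each animal averaged, the median member difference was 0.50, against 0.04 for all genes.

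**Figure D2:**
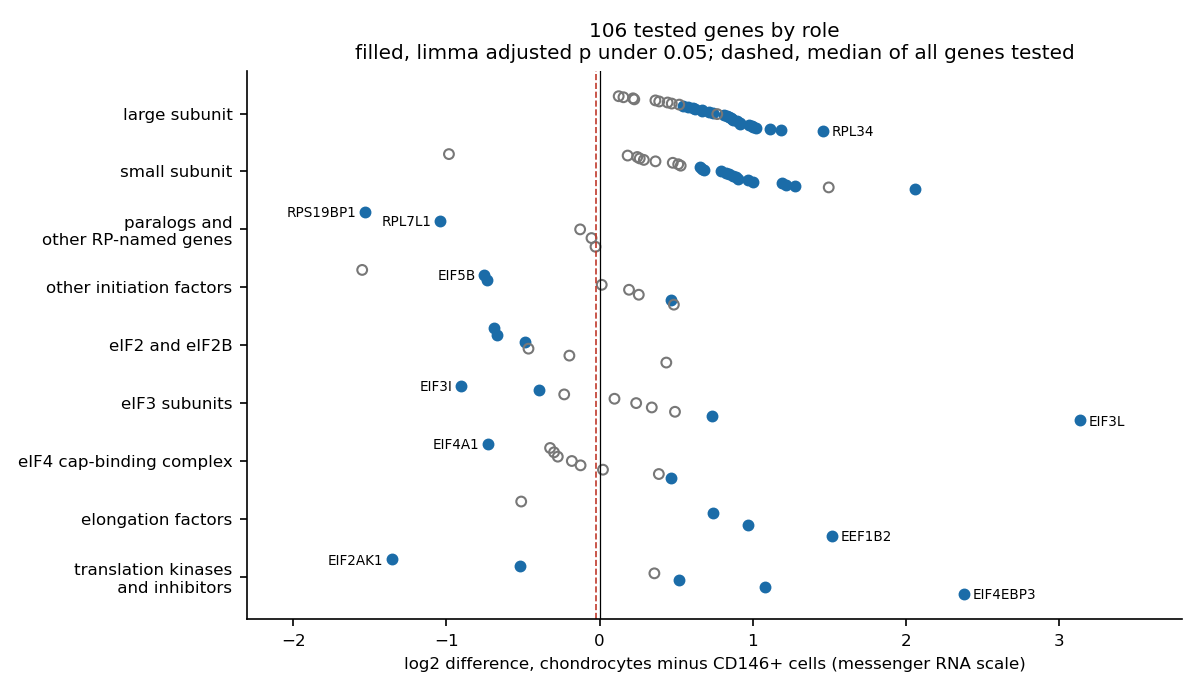
Difference between chondrocytes and CD146+ cells (log2, horizontal axis) for 106 tested genes grouped by role, each point 1 gene, filled where limma's adjusted p was below 0.05. All 34 large subunit points lie right of 0 on this scale (28 of 34 with libraries divided by their messenger RNA total), EIF3L lies farthest right at 3.14, and the dashed line marks the median of all genes at -0.02.

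Proteins of the large subunit were higher in chondrocytes as a group. Of 34 tested, 24 (70.6%) were higher and 0 lower, against 22.4% and 21.8% of all genes tested, and their median was 0.75. With each library divided by its messenger RNA total, 6 were higher and 0 lower, against 1421 and 3887 of all 10116 genes. On the deposited scale 0 of 34 passed the test. All 34 differences were positive, against 28 of 34 with each library divided by its messenger RNA total. RPL37A, a small zinc-binding protein and the large subunit gene with the highest signal, had 3948, 6078 and 10400 (lowest, median and highest) in chondrocytes, against 3745, 3633 and 3035 in CD146+ cells of pigs 3, 4 and 5. The groups did not overlap, though the lowest chondrocyte library lay close to the highest CD146+ library (log2 difference 0.87, SE 0.25, limma adjusted p = 0.0145). RPL4, which lines the tunnel through which the new protein leaves, had 1491, 2063 and 2954 in chondrocytes, against 896.6, 887.0 and 908.1 in CD146+ cells. All chondrocyte libraries were well above the closely spaced CD146+ values (1.18, SE 0.19, limma adjusted p = 0.000316). RPL17, also at the tunnel, had 1098, 1459 and 2200 in chondrocytes, against 833.9, 641.0 and 635.7 in CD146+ cells. It was higher without overlap (1.11, SE 0.20, limma adjusted p = 0.000636). RPL34 showed the largest difference of the subunit. Its signal was 369.8, 502.7 and 927.9 in chondrocytes, against 207.6, 177.8 and 204.6 in CD146+ cells, again without overlap (1.46, SE 0.26, limma adjusted p = 0.000677).

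The remaining abundant and weaker large subunit genes showed how far the group varied. RPL36A had 1471, 2017 and 3221 in chondrocytes, against 1242, 1140 and 1395 in CD146+ cells, and rose without overlap (0.74, SE 0.21, limma adjusted p = 0.0127). RPL37 had 911.7, 1379 and 1887 in chondrocytes, against 1367, 1145 and 1082 in CD146+ cells. Its groups overlapped and the difference of 0.22 did not pass the test (limma adjusted p = 0.398). RPL27 had 423.2, 565.9 and 937.6 in chondrocytes, against 491.5, 632.8 and 513.2 in CD146+ cells, the smallest difference of the subunit at 0.12 (limma adjusted p = 0.659). RPL3, a core protein near the site of peptide bond formation, had only 7.77, 9.43 and 14.0 in chondrocytes, against 3.34, 6.91 and 5.41 in CD146+ cells, a signal far below that of the genes above. It was higher without overlap (0.84, limma adjusted p = 0.00605). Whether reads of RPL3 were counted on another row without a symbol was not tested. The row named RPLP1 was above 0 in 2 libraries only, and the row of RPL10 is called RPL10L in the reference gene list.

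Proteins of the small subunit were also mostly higher in chondrocytes. Of 25 tested, 15 (60.0%) were higher and 0 lower in chondrocytes, against 22.4% and 21.8% of all genes tested, and the median was 0.79. With each library divided by its messenger RNA total, 9 were higher and 1 lower, against 1421 and 3887 of all 10116 genes. On the deposited scale 0 of 24 passed the test. In all, 24 differences were positive, against 19 of 25 with each library divided by its messenger RNA total. RPS12, a protein of the head of the small subunit, had 1277, 1720 and 2200 in chondrocytes, against 881.4, 587.6 and 771.7 in CD146+ cells. It gave the smallest p of the subunit, with no overlap (1.19, SE 0.18, limma adjusted p = 0.000154). RPS6, the target of S6 kinases downstream of mTOR, had 1893, 2529 and 3086 in chondrocytes, against 1510, 1414 and 1330 in CD146+ cells. It was higher without overlap and with a small spread among CD146+ libraries (0.82, SE 0.14, limma adjusted p = 0.000513). RPS4X had 1445, 1863 and 2343 in chondrocytes, against 1245, 984.9 and 932.1 in CD146+ cells (0.85, SE 0.15, limma adjusted p = 0.000694). These groups did not overlap either. RPS27 had 1147, 2059 and 3940 in chondrocytes, against 1039, 917.7 and 620.5 in CD146+ cells (1.21, SE 0.35, limma adjusted p = 0.0142), a larger but more variable difference.

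Other small subunit genes did not follow or were uncertain. RPS20, with the highest signal of the subunit, had 3721, 6022 and 8900 in chondrocytes, against 5111, 4513 and 3183 in CD146+ cells. The groups overlapped and the difference of 0.48 did not pass the test (SE 0.22, limma adjusted p = 0.0966). RPS21 had 2.27, 13.5 and 27.4 in chondrocytes, against 37.9, 9.89 and 32.5 in CD146+ cells, the only negative difference of the subunit (-0.98, SE 0.51, limma adjusted p = 0.137). RPS26 has 2 rows, ENSSSCG00000000374 and ENSSSCG00000028919, and near-identical copies can split reads. The row ENSSSCG00000000374 was low, with 7.77 to 52.9 in chondrocytes, against 7.90, 3.56 and 3.29 in CD146+ cells, and passed the test although a chondrocyte library fell within the CD146+ range (2.06, SE 0.49, limma adjusted p = 0.00438). Its CD146+ values lay mostly below the filter value of 5, so it was tested through its chondrocyte libraries. RPS26 ENSSSCG00000028919 had 45.5 to 359.1 in chondrocytes of pig 2 and 564.0 to 1437 in those of pigs 5 and 6, against 263.2, 327.0 and 80.4 in CD146+ cells. It thus differed more between animals than between cell types and did not pass (limma adjusted p = 0.184). RPS16 also has 2 rows, of which ENSSSCG00000010712 was higher with overlap (1.28, limma adjusted p = 0.0158) and ENSSSCG00000005432 did not pass (0.25, limma adjusted p = 0.508). Both rows of RPSA, a laminin-binding protein that is also part of the small subunit, were higher (0.90 and 0.89).

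Sums over the members of a role depended on the scale. On the scale used here, large subunit signal was 36610 ± 10290 in DP, 39950 ± 8020 in B1B, 31700 ± 5589 in A4 and 33800 ± 6594 in DN cells, against 20820 ± 1697 in CD146+ cells (mean ± SD, n = 3 each), a ratio of 1.71 for all chondrocytes. Small subunit signal was 30530 ± 7389, 33560 ± 7122, 26170 ± 3263 and 28280 ± 5409 in the same chondrocyte populations, against 18180 ± 2779 in CD146+ cells, a ratio of 1.63. As share of the messenger RNA total these ratios were 1.25 and 1.20, with chondrocyte and CD146+ ranges that overlapped, and on the deposited scale, where the ranges also overlapped, they were 4.75 and 4.55. Ranges of the 4 chondrocyte populations overlapped. In each of them the library of pig 5 had the highest sum for both subunits, for example 48210 for the large subunit in DP cells. Against the 3 CD146+ libraries, the median member difference was 0.49 for pig 2, 0.71 for pig 5 and 0.33 for pig 6, so it was positive within every animal and largest in the animal whose label was in doubt. Without pig 5, 44 members were higher and 11 lower, against 1954 and 1980 of all 9647 genes.

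**Figure D3:**
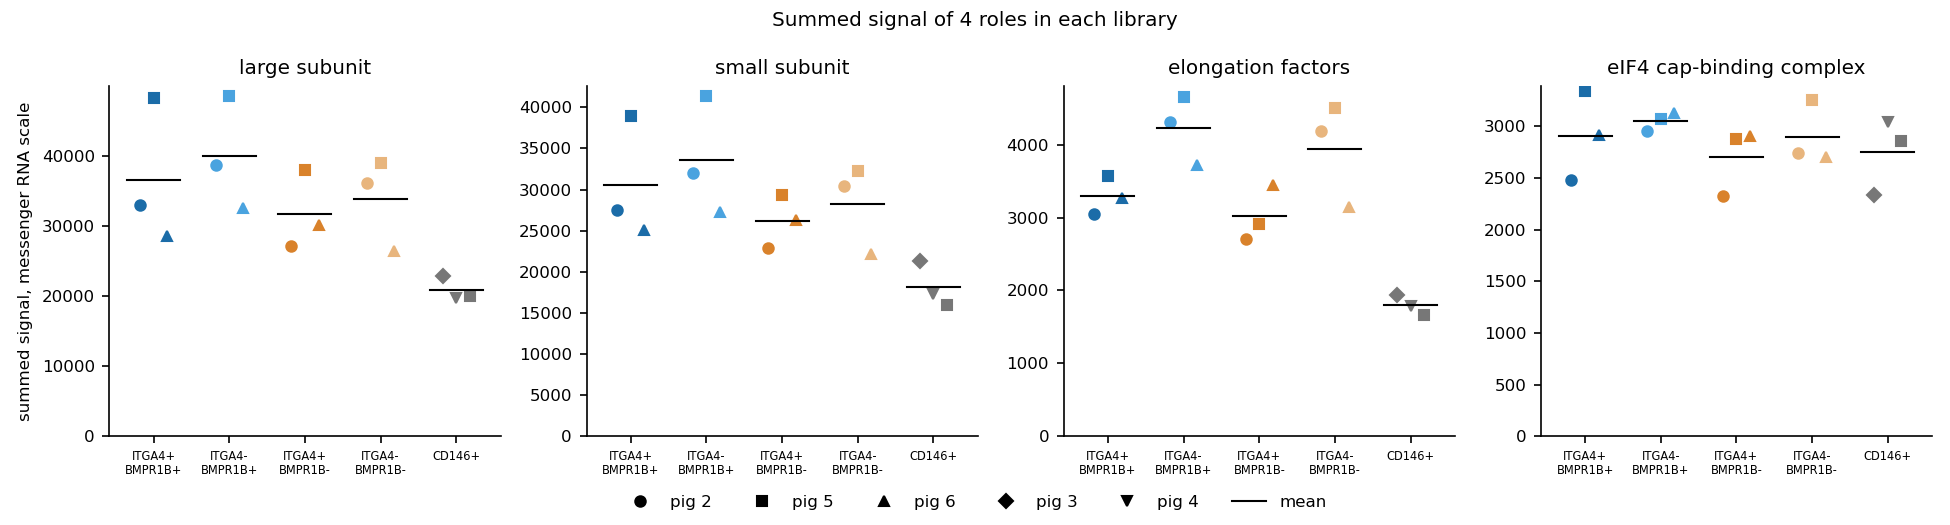
Summed signal on the messenger RNA scale (vertical axis) of large subunit, small subunit, elongation factor and eIF4 members in each library by sorted population, with animals as symbol shapes and bars as means. For both subunits and the elongation factors all 12 chondrocyte points lie above the 3 CD146+ points on this scale, whereas eIF4 sums overlap.

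Paralogs of ribosomal proteins and other genes with such symbols did not share the rise. Of 5 tested, 0 were higher and 2 (40.0%) lower, against 22.4% and 21.8% of all genes tested. No difference was positive, against 3 of 4 on the deposited scale. RPS19BP1, a nucleolar protein that binds RPS19, had 6.37, 10.6 and 17.9 in chondrocytes, against 25.8, 42.3 and 33.1 in CD146+ cells. It fell without overlap (-1.53, SE 0.24, limma adjusted p = 0.00025). RPL7L1, a paralog of RPL7, had 23.0, 35.8 and 48.7 in chondrocytes, against 58.1, 76.1 and 78.4 in CD146+ cells, and was also lower without overlap (-1.04, SE 0.22, limma adjusted p = 0.00168). RPL22L1 had 4.13 to 10.1 in chondrocytes, against 6.86 to 10.96 in CD146+ cells, RPS27L 39.1 to 77.3 against 42.3 to 59.2, and RPL26L1 26.4 to 56.7 against 31.0 to 49.7. These 3 paralogs overlapped between the cell types, with limma adjusted p between 0.673 and 0.934.

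Elongation factors were higher in chondrocytes for 3 of 4 rows (75.0%) on the scale used here. None was lower, against 22.4% and 21.8% of all genes tested higher and lower. With each library divided by its messenger RNA total, 2 were higher and 1 lower, against 1421 and 3887 of all 10116 genes. On the deposited scale 0 of 3 passed the test. EEF1B2, the subunit that recharges elongation factor eEF1A with GTP, had 696.4, 1045 and 1690 in chondrocytes, against 431.2, 371.8 and 357.1 in CD146+ cells. No chondrocyte library came near the CD146+ range (1.52, SE 0.20, limma adjusted p = 5.09e-05). EEF1G, a structural subunit of the same exchange complex, had 526.3, 766.6 and 1101 in chondrocytes, against 444.1, 355.3 and 373.2 in CD146+ cells (0.97, SE 0.16, limma adjusted p = 0.000347). EEF2, the GTPase that translocates the ribosome, had 1282, 1627 and 2229 in chondrocytes, against 1054, 1051 and 915.9 in CD146+ cells (0.74, SE 0.14, limma adjusted p = 0.000977). Neither of these overlapped between the groups. EEF1D, also of the exchange complex, had 1.58, 7.20 and 12.5 in chondrocytes, against 7.92, 10.01 and 11.03 in CD146+ cells, and did not pass (-0.51, limma adjusted p = 0.0867). A row without a symbol in the deposited table carries the name EEF1D in the reference list and was far more abundant. It had 120.1, 159.5 and 246.4 in chondrocytes, against 60.2, 68.8 and 73.7 in CD146+ cells, and was higher (1.30, limma adjusted p = 1.73e-05). Summed elongation factor signal on the scale used here was 3300 ± 263.3 in DP, 4230 ± 474.4 in B1B, 3026 ± 380.1 in A4 and 3947 ± 708.9 in DN cells, against 1794 ± 140.3 in CD146+ cells (mean ± SD, n = 3 each). As share of the messenger RNA total the lowest chondrocyte sum was 2349, against 2372 in CD146+ cells of pig 3. On the deposited scale it was 49.7, against 53.8 in CD146+ cells of pig 4, so the ranges overlapped on both scales.

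EIF3L had the largest difference of the 106 members tested. It encodes a subunit of eIF3, the largest initiation factor, which holds the small subunit and the other factors together. EIF3L had 1471, 1061 and 830.2 in DP cells of pigs 2, 5 and 6, 997.8, 695.7 and 1124 in B1B cells, 683.4, 287.2 and 311.0 in A4 cells and 605.4, 346.9 and 367.9 in DN cells, against 58.6, 146.8 and 43.1 in CD146+ cells of pigs 3, 4 and 5. All 12 chondrocyte libraries lay above all CD146+ libraries. The difference was 3.14 (SE 0.36, limma adjusted p = 1.58e-05) and ranged from 2.77 to 3.65 with each library left out in turn, at a largest adjusted p of 0.000289. The order of the means was DP (1121 ± 324.8), B1B (939.2 ± 220.1), DN (440.1 ± 143.5), A4 (427.2 ± 222.2) and CD146+ cells (82.8 ± 55.95, SD, n = 3 each). Ranges of DP and B1B cells overlapped, as did those of DN and A4 cells.

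The other eIF3 subunits differed less than EIF3L. The ratio of EIF3L to the sum of the 9 other subunits was 0.604 to 3.72 in chondrocytes, against 0.152, 0.345 and 0.106 in CD146+ cells. EIF3K, which pairs with EIF3L at the edge of the complex, had 64.6, 86.1 and 133.2 in chondrocytes, against 48.6, 56.7 and 52.5 in CD146+ cells, and rose without overlap (0.73, limma adjusted p = 0.00647). EIF3I, a subunit with WD repeats, had 13.6, 24.0 and 27.7 in chondrocytes, against 36.3, 41.9 and 45.9 in CD146+ cells, and was lower without overlap (-0.90, SE 0.22, limma adjusted p = 0.0054). EIF3A, the scaffold subunit, had 74.2, 85.7 and 99.3 in chondrocytes, against 96.5, 125.0 and 122.9 in CD146+ cells, and was lower with overlap of the ranges (-0.39, limma adjusted p = 0.018). EIF3G had 80.5, 103.7 and 159.0 in chondrocytes, against 86.3, 68.0 and 74.1 in CD146+ cells, and did not pass (limma adjusted p = 0.0635). Of 9 eIF3 rows tested, 2 were thus higher and 2 lower. These shares (22.2% each) were near those of all genes tested (22.4% and 21.8%).

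Factors that choose the start codon and join the subunits were divided. EIF1, which guards start codon choice, had 1344, 1755 and 2201 in chondrocytes, against 1155, 1555 and 1122 in CD146+ cells, a small rise with overlapping ranges (0.47, limma adjusted p = 0.0391). Its close relative EIF1B had 69.0, 89.5 and 135.7 in chondrocytes, against 156.8, 150.7 and 154.9 in CD146+ cells, and was lower without overlap (-0.73, SE 0.16, limma adjusted p = 0.00241). EIF5B, the GTPase that joins the large subunit, had 28.0, 34.1 and 39.0 in chondrocytes, against 47.1, 57.4 and 67.7 in CD146+ cells, and also fell without overlap (-0.75, SE 0.14, limma adjusted p = 0.00102). EIF5, which triggers GTP hydrolysis by eIF2, had 221.9, 309.9 and 382.9 in chondrocytes, against 150.3, 250.8 and 261.8 in CD146+ cells (limma adjusted p = 0.0512). Of these 8 rows, 1 was higher and 2 lower.

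The eIF2 complex, which delivers the first transfer RNA, and its exchange factor eIF2B were lower where they passed the test. Of 6 rows, 0 were higher and 3 (50.0%) lower, against 22.4% and 21.8% of all genes tested. However, all 5 rows tested on the deposited scale were positive there. EIF2S1, the alpha subunit on which stress kinases act, had 17.8, 22.6 and 29.0 in chondrocytes, against 29.6, 32.5 and 32.2 in CD146+ cells, without overlap (-0.48, limma adjusted p = 0.0163). EIF2B5, the catalytic subunit of eIF2B, had 19.7, 31.8 and 43.2 in chondrocytes, against 59.4, 42.1 and 53.3 in CD146+ cells (-0.67, limma adjusted p = 0.0158). EIF2B2 had 14.7, 20.2 and 32.0 in chondrocytes, against 38.9, 34.8 and 28.3 in CD146+ cells (-0.69, limma adjusted p = 0.00781). Ranges of both eIF2B genes overlapped slightly. EIF2S1 missed the threshold without the CD146+ library of pig 4 or pig 5, EIF2B5 without that of pig 3 or pig 5 and EIF2B2 without that of pig 3, with largest limma adjusted p of 0.0668, 0.0879 and 0.0514. EIF2B4 had 18.1 to 69.5 in chondrocytes, against 40.5 to 86.4 in CD146+ cells, and did not pass (limma adjusted p = 0.33). EIF2S3 did not pass either (0.44, limma adjusted p = 0.278), and its chondrocyte values followed the animal as given above.

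The eIF4 group, which binds the cap and unwinds the start of the message, had sums that overlapped between the cell types, with 2908 ± 432.4 in DP, 3051 ± 88.59 in B1B, 2701 ± 325.7 in A4 and 2898 ± 306.1 in DN cells, against 2746 ± 368.4 in CD146+ cells (mean ± SD, n = 3 each). The ratio of the means depended on the scale, at 1.05 here, 0.776 as share of the messenger RNA total and 2.89 as deposited. Of the 9 rows, 0 were higher and 6 lower as share of the total, against 1421 and 3887 of all 10116 genes. All 9 differences were positive as deposited, where none passed. EIF4G2, a relative of the scaffold eIF4G that does not bind eIF4E, had 906.7, 1291 and 1542 in chondrocytes, against 778.5, 1152 and 993.7 in CD146+ cells (limma adjusted p = 0.0907). The helicase gene EIF4A1 had 246.1, 374.8 and 479.6 in chondrocytes, against 423.0, 678.4 and 760.6 in CD146+ cells, and was lower although the ranges overlapped (-0.73, SE 0.25, limma adjusted p = 0.0292). Its paralog EIF4A2 had 301.2, 504.3 and 662.8 in chondrocytes, against 523.3, 531.5 and 356.7 in CD146+ cells (limma adjusted p = 0.95). EIF4B, which stimulates the helicase, had 281.4, 517.0 and 720.5 in chondrocytes, against 358.5, 303.0 and 406.2 in CD146+ cells, and was higher with overlap (0.46, SE 0.16, limma adjusted p = 0.034). Apart from EIF4A1 and EIF4B, the other 7 tested rows of the group did not pass. On the scale used here 1 of 9 rows was thus higher and 1 lower (11.1% each), against 22.4% and 21.8% of all genes tested.

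Of the 3 inhibitors of eIF4E, 2 were higher in chondrocytes, and the eIF2 kinases that were tested differed in direction. Of 6 rows tested in this role, 3 (50.0%) were higher and 2 (33.3%) lower, against 22.4% and 21.8% of all genes tested. EIF4EBP3, a 4E-binding protein that holds eIF4E away from the cap complex, had 10.5, 27.2 and 60.9 in chondrocytes, against 2.31, 3.56 and 6.21 in CD146+ cells. Its difference was the second largest of the 106 members tested, after EIF3L (2.38, SE 0.34, limma adjusted p = 9.91e-05). EIF4EBP2 had 5.54, 11.7 and 15.1 in chondrocytes, against 4.33, 3.66 and 5.43 in CD146+ cells (1.08, SE 0.21, limma adjusted p = 0.000936). Neither overlapped between the groups, though EIF4EBP2 nearly touched. CD146+ values of both lay mostly below the filter value of 5, so both were tested through their chondrocyte libraries. EIF4EBP1, the most abundant of the 3, had 75.5, 132.2 and 187.3 in chondrocytes, against 84.3, 101.4 and 110.9 in CD146+ cells, and did not pass (limma adjusted p = 0.195). EIF2AK1, the heme-regulated kinase of eIF2, had 3.98, 5.34 and 9.26 in chondrocytes, against 19.0, 16.6 and 14.4 in CD146+ cells, and was lower without overlap (-1.35, SE 0.22, limma adjusted p = 0.000322). EIF2AK3, the kinase that answers unfolded protein in the endoplasmic reticulum, had 7.57, 9.38 and 10.6 in chondrocytes, against 6.51, 6.92 and 5.44 in CD146+ cells, and was higher without overlap (0.52, SE 0.12, limma adjusted p = 0.0033). EIF4ENIF1, which carries eIF4E into the nucleus, had 6.04, 7.80 and 9.07 in chondrocytes, against 11.8, 10.2 and 12.6 in CD146+ cells. It was lower without overlap (-0.52, limma adjusted p = 0.0102) and missed the threshold without the CD146+ library of pig 5 (limma adjusted p = 0.0606).

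**Figure D4:**
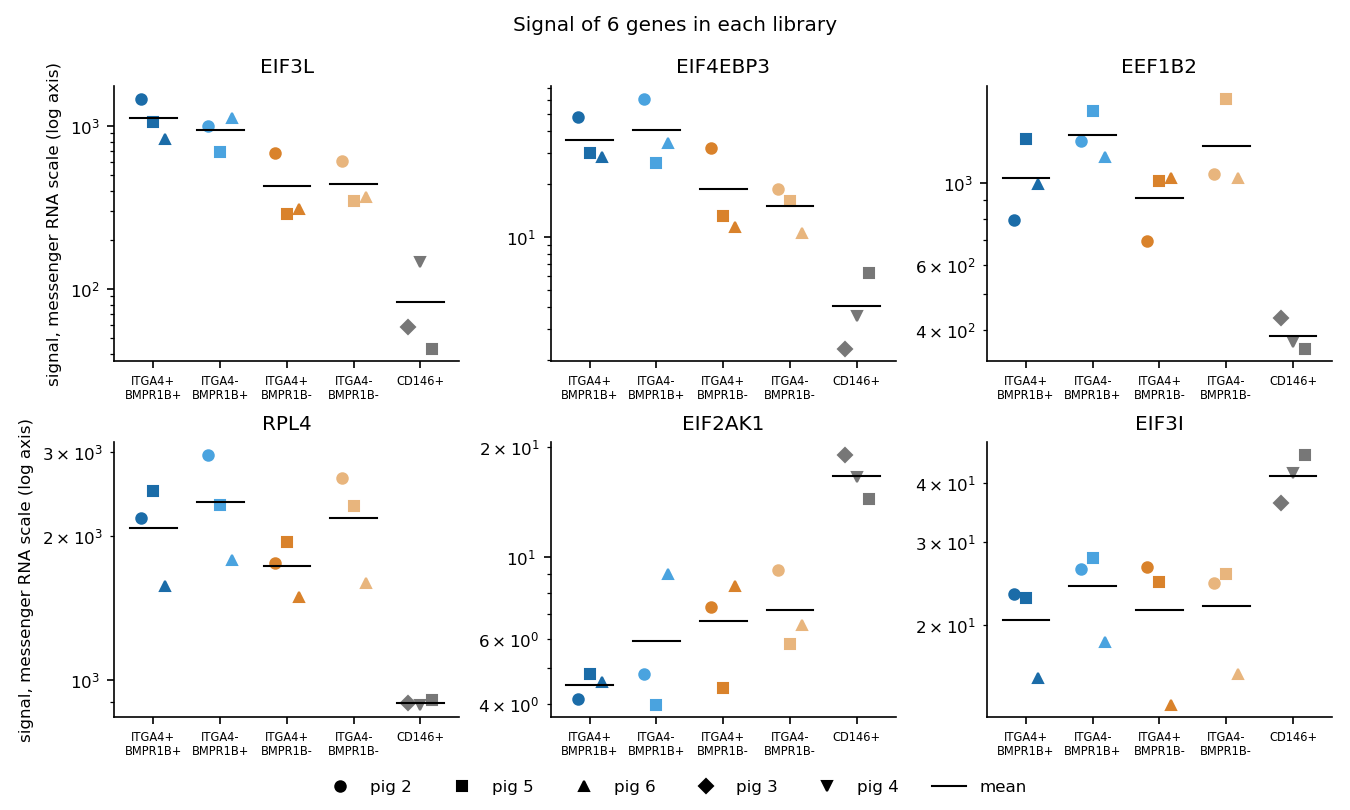
Signal on the messenger RNA scale (vertical axis, log) of EIF3L, EIF4EBP3, EEF1B2, RPL4, EIF2AK1 and EIF3I in each library by sorted population, with animals as symbol shapes and bars as means. The upper row and RPL4 place all chondrocyte libraries above the CD146+ libraries, and EIF2AK1 and EIF3I place them below.

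The number of calls depended on how libraries were scaled, whereas the position of the members relative to other genes depended on it less. With each library divided by its messenger RNA total, the median of all genes shifted to -0.44. On that scale 20 members were higher and 20 lower, against 1421 and 3887 of all 10116 genes tested. Members then lay 0.49 above the median of all genes, against 0.51 on the scale used above. On the deposited scale the median of all genes was 0.59, with a gap of 0.81. Of 98 members tested there, 1 was higher and 0 were lower, against 338 and 139 of all 7049 genes. Large subunit medians exceeded that of all genes by 0.77 on the scale used here, 0.76 as share of the total and 1.08 as deposited, and the values for the small subunit were 0.81, 0.80 and 1.09. EIF2S1, EIF2B2, EIF2B5, EIF1B, EIF5B, EIF3I and RPL7L1, which were lower on the scale used here, had positive differences on the deposited scale and did not pass there. EIF3L was higher on every scale.

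Other genes of translation were counted by list, as chondrocytes against CD146+ cells, where 22.4% of all genes tested were higher and 21.8% lower. GNB2L1 (RACK1), which sits on the small subunit and was the only measured gene of its list of 4, was higher in chondrocytes (0.95, limma adjusted p = 0.00246). Of 7 tested genes with a terminal oligopyrimidine start like that of ribosomal protein genes, NACA (0.63), NPM1 (0.63) and CCNI (0.81) were higher and PABPC4 (-1.21) and TMSB4X (-3.99) lower. Ribosome biogenesis gave 0 higher and 3 lower of 25, namely BOP1 (-0.78), WDR12 (-0.67) and POLR1B (-0.54), with a median of -0.19. Termination and recycling gave 0 higher and 2 lower of 7, the release factor ETF1 (-1.10) and PELO (-0.51, at a limma adjusted p of 0.0498). Among 14 aminoacyl-tRNA synthetases and partners, GARS (1.48) and CARS (0.48) were higher and DARS (-0.77) and AIMP2 (-0.94) lower. Of 14 genes of mTOR and stress control, ASNS (2.40), CHAC1 (2.03), TRIB3 (1.51) and MLST8 (0.78) were higher and RICTOR (-0.89) lower. The first 3 are known targets of the eIF2 stress pathway, as are DDIT3 (0.24, limma adjusted p = 0.411), ATF3 (0.22, limma adjusted p = 0.556) and PPP1R15A (-0.06, limma adjusted p = 0.848), which did not pass. None of these lists held a gene that passed in the 3 comparisons among chondrocytes.

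The second question was whether chondrocytes with BMPR1B differ from those without. The 6 BMPR1B+ libraries (DP and B1B) were compared with the 6 BMPR1B- libraries (A4 and DN). With limma, 0 members were higher and 0 lower, against a background of 0.131% and 0.0803% of all genes tested. At an unadjusted p below 0.05, 3 members were higher and 0 lower, against 423 and 561 of all 9961 genes. The differences were small, with 88 of 106 positive and a median of 0.14, against -0.01 for all genes. That median was 0.05 without the DP library of pig 5, 0.08 without the B1B library of pig 5 or the DN library of pig 6, 0.07 without pig 5 and 0.06 as share of the messenger RNA total. With the animal as a term in the fit, 2 of 106 members were higher and 1 lower, against 121 and 146 of all 9961 genes (1.21% and 1.47%). These counts lie near the shares of all genes and are not read as a result about the members. At an unadjusted p below 0.05 that fit gave 18 and 1. The share of all genes at that level is not given here, so those counts are not read as a result about the members. In that fit, 5 of the 8 chondrocyte markers were also higher in BMPR1B+ libraries, for example COL2A1 (1.28) and MATN3 (1.36), and the fibroblast marker PDGFRA was lower (-1.06), and their part in the member differences was not tested.

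EIF3L and EIF4EBP3 were the members that differed most with BMPR1B. EIF3L had a lowest, median and highest signal of 695.7, 1029 and 1471 in BMPR1B+ libraries, against 287.2, 357.4 and 683.4 in BMPR1B- libraries. It was the only member of 106 whose groups did not overlap in the upward direction, against 59 of 9961 genes (0.592%). Wholly below lay 0 members, against 50 genes (0.502%). Both counts lie near the shares of all genes. The EIF3L difference was 1.29 (SE 0.27, limma adjusted p = 0.118) and, with the animal as a term, 1.29 (SE 0.17, limma adjusted p = 0.0194). Within pigs 2, 5 and 6 it was 0.91, 1.44 and 1.51. EIF4EBP3 had 26.2, 32.0 and 60.9 in BMPR1B+ libraries, against 10.5, 14.5 and 31.7 in BMPR1B- libraries, which overlapped because pig 2 was high in both. The difference of 1.15 did not pass alone (SE 0.30, limma adjusted p = 0.197) and passed with the animal as a term (SE 0.16, limma adjusted p = 0.0195). Within the animals it was 1.11, 0.91 and 1.43. Without the A4 library of pig 2 and without the term, EIF3L passed (1.49, limma adjusted p = 0.0432).

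The 1 lower member was the low row of RPS26, ENSSSCG00000000374. It had 7.77, 20.2 and 32.0 in BMPR1B+ libraries, against 12.6, 36.7 and 52.9 in BMPR1B- libraries, with overlap because pig 2 was low throughout. The difference was -0.69 (limma adjusted p = 0.679, and 0.022 with the animal as a term), and within the animals it was -0.47, -0.85 and -0.76. All 3 calls were close to the threshold. With each library left out in turn in that fit, the limma adjusted p ran over 0.0158 to 0.0731 for EIF3L, which missed the threshold without the B1B library of pig 5 or any of the 3 DN libraries. It ran over 0.0169 to 0.074 for EIF4EBP3, lost without either of the A4 or B1B libraries of pigs 5 and 6 or any DN library. It ran over 0.0169 to 0.0828 for RPS26, lost without the same 7 libraries or the DP library of pig 5. EIF4E, the cap-binding protein itself, had 17.8, 21.2 and 31.6 in BMPR1B+ libraries, against 14.1, 16.8 and 19.8 in BMPR1B- libraries, and did not pass (0.38, limma adjusted p = 0.446). EIF2AK1 (-0.37, limma adjusted p = 0.621) and the scaffold gene EIF4G3 (-0.20, limma adjusted p = 0.63) did not pass either.

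**Figure D5:**
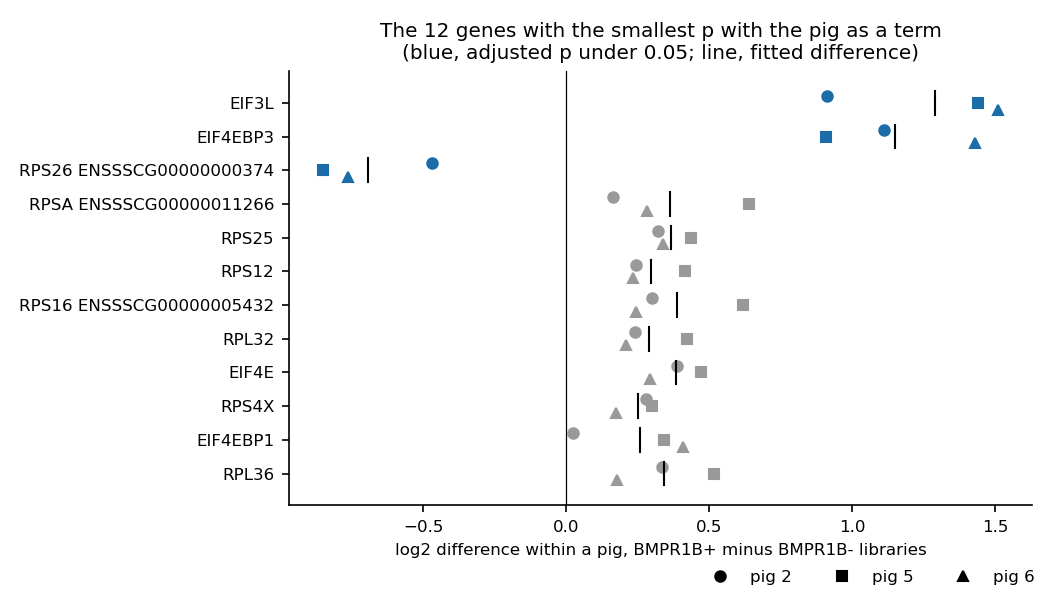
Difference within each animal (log2, BMPR1B+ minus BMPR1B- libraries, horizontal axis) for the 12 members with the smallest p when the animal is a term, with symbol shapes for pigs 2, 5 and 6 and ticks for fitted differences. EIF3L and EIF4EBP3 lie at 0.91 or above in all 3 animals, RPS26 ENSSSCG00000000374 lies below 0 in all 3, and the 9 gray genes did not pass the test.

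The comparison of ITGA4+ chondrocytes (DP and A4) with ITGA4- chondrocytes (B1B and DN) gave 0 members higher and 0 lower with limma, with or without the animal as a term. The background was 0.0% and 0.01% of all genes tested. At an unadjusted p below 0.05, 1 member was higher and 6 lower, and 3 and 23 with the animal as a term. The share of all genes at that level is not given here, so these counts are not read as a result about the members. Of 106 differences, 26 were positive, and the median was -0.10, against -0.02 for all genes. On the deposited scale the medians were 0.40 and 0.32, and leaving out single libraries gave member medians of -0.20 to -0.06. The lowest came without the DP library of pig 5 and the highest without that of pig 6, and leaving out all of pig 2 also gave -0.06. EIF4EBP2 had 5.54, 7.96 and 11.7 in ITGA4+ libraries, against 11.3, 13.7 and 15.1 in ITGA4- libraries (-0.63, limma adjusted p = 0.757). EIF4B had 281.4, 448.3 and 523.0 in ITGA4+ libraries, against 511.1, 560.4 and 720.5 in ITGA4- libraries (-0.47, limma adjusted p = 0.808). Both overlapped by a narrow margin. In the other direction, EEF1D on its low row had 6.27, 8.23 and 12.5 in ITGA4+ libraries, against 1.58, 5.29 and 7.53 in ITGA4- libraries (0.75, SE 0.22, limma adjusted p = 0.757). RPL27 (0.27, limma adjusted p = 0.91) and EIF2B2 (0.19, limma adjusted p = 0.928) were nearer to 0.

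To ask whether double positive cells have translation genes of their own, DP libraries were compared with the other 9 chondrocyte libraries. With limma, 0 members were higher and 0 lower, with or without the animal as a term, at a background of 0.0% in both directions. At an unadjusted p below 0.05, 3 members were higher and 0 lower, and 5 and 0 with the animal as a term, again without the share of all genes. Of 106 differences, 54 were positive, and the median was 0.00, but it was -0.13 without the DP library of pig 5 and 0.13 without that of pig 6. On the deposited scale it was 0.36, against 0.21 for all genes. EIF3L, whose values are given above, had the smallest p (1.02, SE 0.31, limma adjusted p = 0.60, and 0.166 with the animal as a term). EIF2B2 had 26.5, 32.0 and 21.9 in DP cells of pigs 2, 5 and 6, and its difference of 0.47 did not pass (limma adjusted p = 0.747). EIF4E had 24.9, 31.6 and 17.8 in DP cells (0.41, limma adjusted p = 0.747). EIF2AK1 (-0.42, limma adjusted p = 0.848), EIF4H, a helper of the eIF4A helicase (-0.19, limma adjusted p = 0.871), and EIF4EBP2 (-0.34, limma adjusted p = 0.873) had the smallest p among the lower members. An interaction of ITGA4 with BMPR1B, examined after the values were seen, gave 0 members at an adjusted p below 0.05 and 1 at an unadjusted p below 0.05 with limma. All 3 comparisons among chondrocytes use the same 12 libraries.

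The 8 members that did not reach a signal of 5 in 3 libraries were not tested. EIF4E3, a relative of eIF4E, had 2.23, 3.14 and 4.29 in chondrocytes, against 1.15, 1.09 and 0.703 in CD146+ cells, without overlap. EIF2AK2, the kinase activated by double-stranded RNA, had 1.10, 2.34 and 3.54 in chondrocytes, against 3.99, 4.73 and 2.15 in CD146+ cells. EEF2K, which phosphorylates and inhibits EEF2, had 2.65, 3.47 and 4.40 in chondrocytes, against 4.12, 3.22 and 2.08 in CD146+ cells, and the groups overlapped. EIF3D was above 0 in 5 of the 6 BMPR1B+ libraries and 1 of the 6 BMPR1B- libraries, at most at 1.72, and was listed at 0 in all 3 DN and all 3 CD146+ libraries. EIF4E2 had 1.11 to 2.99 in chondrocytes, against 1.18 to 3.03 in CD146+ cells, and EIF2B3 stayed below 1.23 in every library. EIF4E1B was above 0 in 1 CD146+ library only.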

How the data were processed

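The authors aligned paired-end reads of NuGen Ovation SoLo libraries to the Sus scrofa Ensembl84 reference with STAR and quantified genes with Partek E/M. The deposited signal has 1 column per library, is not pooled, and writes 0 as 0.0001. How it was normalized and which tool versions were used, the sources used here do not give. It holds no read counts, the read totals that the study lists were not used here, and no interval or floor was set. From 25322 rows, 1111 structural and 37 mitochondrial RNA rows were left out. The remaining 24174 rows were scaled by their median ratio to a geometric mean library, taken over 11062 rows. Genes whose value exceeded 5 in 3 libraries or more entered limma 3.58.1 (R 4.3.3) on log2(value + 1) with a trended prior and Benjamini-Hochberg adjustment over all 9961 genes, at 0.05. Fold changes of low genes are understated on that scale. The filter could be met through chondrocyte libraries alone. Tables and plots were made with Python 3.11.15, pandas 2.3.3 and numpy 2.4.6.

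The 4 comparisons were chondrocytes against CD146+ cells (15 libraries), and BMPR1B+ against BMPR1B-, ITGA4+ against ITGA4- and DP against the other 3 populations (12 libraries). Genes named were EIF3L, up to 10 members per direction with the smallest p among those past the threshold (the 3 with the smallest p where none passed), the 2 with the highest signal in each role, and chosen paralogs, kinases and inhibitors. One member that this rule names is not reported here. Other genes described were chosen after their values were seen. Members, lists and tests were chosen with earlier results of these data known. Symbols are those of the table, and 58 of the 59 members found by identifier in the reference list (Sscrofa11.1) had the same symbol there.

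The animal number pairs the 12 chondrocyte libraries, since each animal gave all 4 populations. Deviations from the population means correlated at 0.13 to 0.41 between libraries of one animal (18 pairs) and at -0.321 to 0.0539 between animals (36 pairs), and each of 12 libraries correlated best with one of its own animal. In data simulated for chondrocytes against CD146+ cells (9239 genes), 50% of planted log2 changes of 1 and 86% of those of 2 were recovered. Of the calls, 5.56% were false. That simulation had no animal effect, planted 100 changes of each size in genes of higher signal only and left all other genes unchanged. Its recovery therefore does not describe related libraries, genes of low signal or data in which many genes differ. For BMPR1B+ against BMPR1B- (9715 genes) the recovery was 56% and 82% without and 76% and 90% with the animal as a term. Of those calls, 0% and 2.35% were false. These changes too were planted in genes of higher signal only, with all other genes unchanged, so this recovery does not describe genes of low signal. Alternatives were other scalings, a pseudocount of 5, no filter, animal means, the animal as a term, and libraries or animals left out. Scaling without the 2 most abundant unnamed rows, leaving out chondrocytes of pig 5, the interaction and leaving out libraries with the animal as a term were added after seeing the data.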

Additional observations from a re-analysis of the deposited data

How the results depend on the processing

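For chondrocytes against CD146+ cells, 49 members were higher and 12 lower. On the deposited scale (98 members tested) 1 was higher and 0 lower, against 338 and 139 of all 7049 genes. As share of the messenger RNA total 20 were higher and 20 lower, against 1421 and 3887 of all 10116 genes. Without the 2 most abundant unnamed rows (added after seeing the data) 32 were higher, against 1661 of all 10729 genes. With animal means 7 were lower, against 1622 of all 9961 genes, and the median member difference was 0.50, against 0.04 for all genes. With single libraries left out, 38 to 51 were higher and 7 to 12 lower, against 1838 to 2252 and 1361 to 2223 of all genes tested. The other settings stayed within 1.5 times these counts, namely a pseudocount of 5 (49 and 12), no filter (45 and 13 of 114), scaling without the members (50 and 12) and leaving out pig 2 or pig 5 (44 and 11 each). All genes gave 2163 higher and 2231 lower of 9961 with that pseudocount, and 2711 and 3074 of 20579 without the filter. They gave 2246 and 2155 of 9961 for scaling without the members. Without pig 2 they gave 2218 and 2156 of 9573, and without pig 5 1954 and 1980 of 9647. With the animal as a term (the replicate block), 61 were higher and 8 lower, against 18.9% and 15.3% of all genes tested. That fit joins cartilage and synovium only through pig 5, whose labels conflict in Y-linked genes. On the deposited scale, EIF5B (0.29), RPL7L1 (0.0739), EIF1B (0.34), EIF3I (0.15), EIF2B2 (0.29), EIF2B5 (0.31) and EIF2S1 (0.39) turned positive in this comparison, as did EIF4B (0.15) for ITGA4 and EIF4H (0.17) for DP against the other 3. The cause was not tested, apart from the scaling itself. For BMPR1B, the replicate block gave 2 higher and 1 lower in place of 0 and 0, against 1.21% and 1.47% of all genes tested. Without it, leaving out single libraries gave 0 to 1 higher. With it, leaving out single libraries gave 0 to 2 higher and 0 to 1 lower. The replicate block changed no call for ITGA4 or DP. Read totals per library were not used here.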

Other observations

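Rows without a symbol in the deposited table include 8 that the reference list names as members of the same families. RPLP1, a stalk protein of the large subunit, had 2317, 3388 and 4915 (lowest, median and highest) in chondrocytes, against 1517, 1513 and 1365 in CD146+ cells of pigs 3, 4 and 5, and was higher without overlap (1.19, SE 0.16, limma adjusted p = 6.88e-05). Its partner RPLP2 had 845.7, 1189 and 2246 in chondrocytes, against 832.8, 717.5 and 896.0 in CD146+ cells, and was higher with overlap (0.63, limma adjusted p = 0.0333). A further row named RPS16 had 579.7, 897.1 and 1603 in chondrocytes, against 795.0, 799.8 and 817.0 in CD146+ cells, and did not pass (0.21, limma adjusted p = 0.432). EIF1AD had 28.0, 38.9 and 60.4 in chondrocytes, against 63.2, 67.4 and 64.0 in CD146+ cells, and was lower without overlap (-0.72, limma adjusted p = 0.00493). EIF6, which keeps the subunits apart, had 56.8, 74.3 and 105.9 in chondrocytes, against 95.4, 100.4 and 105.8 in CD146+ cells (-0.38, limma adjusted p = 0.146). EIF2S2, the beta subunit of eIF2, had 92.3, 116.2 and 155.2 in chondrocytes, against 92.2, 110.4 and 84.0 in CD146+ cells (0.32, limma adjusted p = 0.168). EEFSEC stayed below 1 in every library. Other members of these families, EEF1A1 among them, were not analysed here.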
